A study of Mus musculus with 6 samples.

Results

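The Toll-like receptors and their closest partners were examined as a group of 10 genes, picked by name from the 56750 rows of a deposited expression table and matched by Ensembl identifier. They comprise 4 receptors of the cell surface (Tlr1, Tlr2, Tlr4 and Tlr6), 3 receptors of endosomes (Tlr7, Tlr9 and Tlr13), the co-receptors Cd14 and Ly96, and the adaptor Myd88. RNA was sequenced from 3 libraries of DIC mice, which had colitis induced with 2.5% dextran sulfate sodium (DSS) over 5 days, and from 3 libraries of control mice. All mice were C57BL/6, and in all of them the cells were sorted from femur marrow as Lin- Sca1+ cKit+ (LSK) cells, a fraction rich in stem and early progenitor cells. The labels give no age and do not say what the controls drank. Library names (DIC 1, 2 and 3, and control 1, 2 and 4) follow the column names. Values are in TPM, an abundance unit scaled for gene length and for the library's total.

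Toll-like receptors are innate sensors of microbial products. Those of the cell surface bind components of microbial walls, while those of endosomes bind nucleic acids after uptake. All 7 receptors studied here signal through MYD88, which recruits IRAK kinases and TRAF6 and so activates NF-kB and inflammatory genes. Stem and progenitor cells of the marrow are known to carry some of these receptors, and their stimulation is known to favor myeloid output. Comparing DIC with control asks whether marrow progenitors carried different amounts of these sensor transcripts during intestinal inflammation.

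That these were LSK cells rests on the labels. The sort genes were present in every library, at 82.3 to 95.2 TPM in DIC and 54.2 to 99.5 TPM in control for Kit, and at 15.5 to 23.8 TPM in DIC and 19.7 to 49.9 TPM in control for Ly6a, which encodes Sca1. Neutrophil transcripts were far more abundant: a list of 16 neutrophil markers took 23.6%, 16.1% and 19.7% of TPM in DIC 1, 2 and 3 and 4.39%, 13% and 3.16% in controls 1, 2 and 4, with no marker at 0. Most of that share was S100a8 and S100a9 together. S100a8 was at 63966 to 105476 TPM in DIC and 13283 to 52974 TPM in control. For S100a9 the ranges were 51010 to 69749 TPM in DIC and 10554 to 41595 TPM in control. By the share of the list, control 2 stood apart from the other controls, so the fold changes of the 9 tested genes of the group are given with and without it. It was singled out after these values were seen, and its neutrophil share was the closest of the controls to DIC. Leaving it out can therefore widen differences by construction. Adjusted p-values without control 2 are given as description, not as separate support. Fewer cells of a type and less RNA per cell cannot be told apart in such bulk samples.

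No gene of the Toll-like receptor group passed the test for a difference between DIC and control, and most varied more within a group than between the groups. A gene was tested if it reached 1 TPM in at least 3 libraries, which 9 of the 10 genes did and Tlr9 did not. With limma on log2(TPM + 1) and Benjamini-Hochberg adjustment over 13496 genes, 0 of the 9 passed an adjusted p of 0.05, against 0.0593% of all genes tested. Below an unadjusted p of 0.05 lay 0 of the 9, against 20.2% of all genes. In none of the 9 did the 3 DIC libraries separate from the 3 controls, whereas 25.5% of all genes separated. The median log2 fold change of the 9 was 0.09, against -0.08 for all genes tested, with 5 genes positive and 4 negative. Only for Tlr4 and Tlr13, among all 10, did the difference of group means exceed the pooled standard deviation within groups on the log2 scale.

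**Figure D1:**
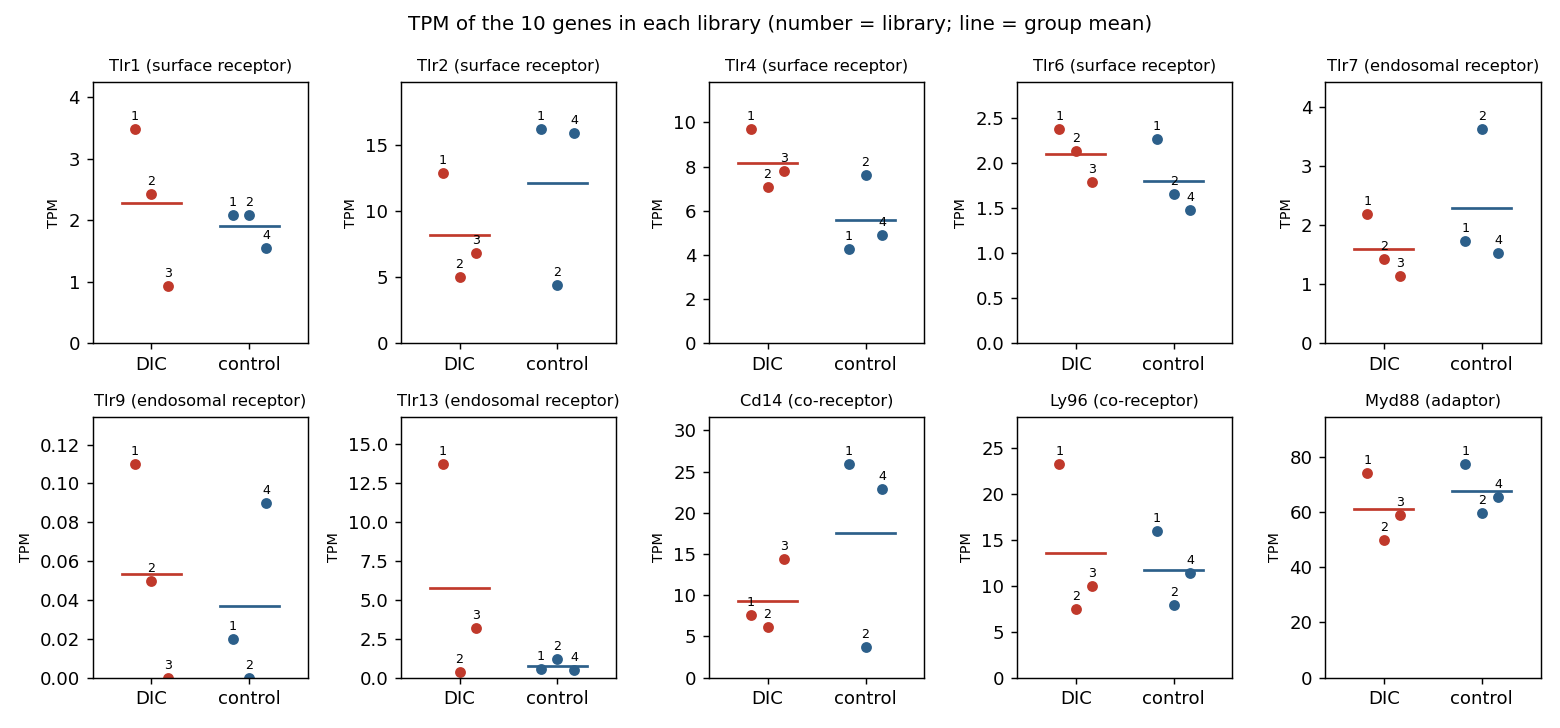
TPM (y axis, from 0, scale differs by panel) of each of the 10 genes in DIC and control libraries, where a point is 1 library with its number and a line is the group mean. In the panels of Tlr2 and Cd14, controls 1 and 4 lie above all DIC libraries and control 2 lies below them; in the panel of Tlr13, DIC 1 stands far above the rest at 13.7 TPM.

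**Figure D2:**
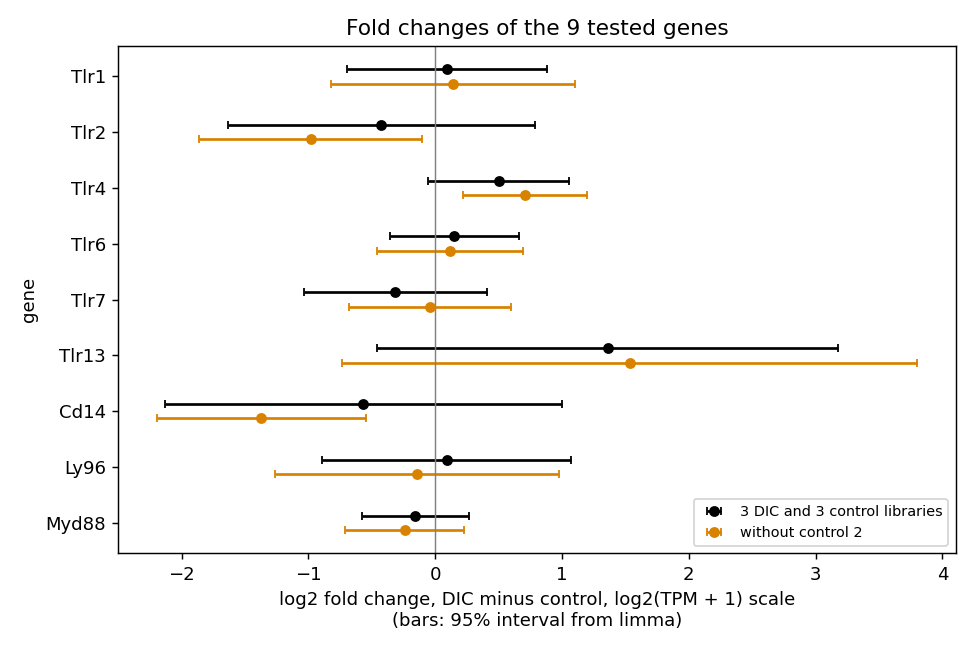
Log2 fold change of DIC over control on the log2(TPM + 1) scale (x axis) for the 9 tested genes (y axis), with 95% intervals from limma, for all 6 libraries (black) and without control 2 (orange). All 9 black intervals include 0; without control 2 the intervals of Tlr2, Tlr4 and Cd14 do not, although none passed after adjustment over all genes.

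Leaving out control 2 separated the groups for 3 genes. Tlr4 was then higher in every DIC library than in both remaining controls, and Tlr2 and Cd14 were lower. Such separation is common in that comparison, with 19.2% of all genes higher and 30.9% lower. None of the 9 genes passed limma's adjusted threshold there (0 of 9, against 12.4% of all genes). The nearest were Cd14 (adjusted p = 0.0516) and Tlr4 (adjusted p = 0.0702), with Tlr2 at 0.125.

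The surface receptor Tlr2 (ENSMUSG00000027995) recognizes bacterial lipoproteins, paired with TLR1 or TLR6. It measured 12.9, 4.98 and 6.79 TPM in DIC 1, 2 and 3, against 16.2, 4.36 and 15.9 TPM in controls 1, 2 and 4. The groups overlapped because control 2 was the lowest of the 6 libraries. The log2 fold change was -0.42 ± 0.51 (SE, limma adjusted p = 0.665) with all libraries and -0.98 ± 0.36 without control 2. It was -0.14 without control 1, -0.15 without control 4 and -0.16 without DIC 2, so its size depended on single libraries. The promoter of Tlr2 is shown because its transcript was high in the same controls as several NF-kB response genes described below. It spans chr3:83841559-83841858 (minus strand, GRCm38.p6, sequence from RefSeq), from 250 bases before the start of transcription to 50 bases from it on, with matches to the kappaB consensus, the DNA motif of NF-kB, in capitals.
Tlr2 promoter: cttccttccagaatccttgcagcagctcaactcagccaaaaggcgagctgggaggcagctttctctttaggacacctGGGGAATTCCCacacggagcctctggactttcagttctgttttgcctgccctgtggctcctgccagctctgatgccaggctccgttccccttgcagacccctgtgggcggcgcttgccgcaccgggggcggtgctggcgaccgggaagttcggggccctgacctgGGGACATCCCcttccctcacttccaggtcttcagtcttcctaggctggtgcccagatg
Both strands were searched. The matches lay at bases 78 to 87, 79 to 88 and 243 to 252 of the window, and those at 78 and 79 overlap. The motif occurs in 4.51% of 32851 RefSeq promoter windows of this length. A match describes the sequence and does not show binding.

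The partners of TLR2 were less abundant than Tlr2 itself on average. Tlr1 (ENSMUSG00000044827), the partner for triacylated lipoproteins, measured 3.48, 2.43 and 0.92 TPM in DIC, against 2.09, 2.08 and 1.54 TPM in control. Its DIC libraries enclosed all controls, and its log2 fold change was 0.10 ± 0.34 (SE, limma adjusted p = 0.889) with all libraries and 0.14 ± 0.39 without control 2. Tlr6 (ENSMUSG00000051498), the partner for diacylated lipoproteins, measured 2.37, 2.13 and 1.78 TPM in DIC, against 2.26, 1.65 and 1.48 TPM in control. Among the 9 tested genes only Myd88 spanned a narrower range, with its highest library at 1.56 times the lowest against 1.6 times for Tlr6. Tlr6 changed by 0.15 ± 0.22 on the log2 scale (SE, limma adjusted p = 0.717), with an interval from -0.36 to 0.66, and by 0.12 ± 0.24 without control 2. The ratio of Tlr1 to Tlr2 in TPM was 0.271, 0.488 and 0.135 in DIC, against 0.129, 0.477 and 0.0966 in control, so that DIC 2 and control 2 had the most Tlr1 per Tlr2. Tlr1 and Tlr6 are neighbors on chromosome 5, and their longest annotated transcripts share an identical stretch of 229 bases. Of the stretches of 150 bases in Tlr1, the read length, 4.83% also occur in Tlr6. A small part of their reads can therefore be divided either way between them, while no other pair of Toll-like receptors shared more than 18 bases.

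Tlr4 (ENSMUSG00000039005), the receptor for bacterial lipopolysaccharide, came closest to a difference with all 6 libraries. It measured 9.69, 7.06 and 7.80 TPM in DIC 1, 2 and 3, against 4.27, 7.61 and 4.91 TPM in controls 1, 2 and 4. Control 2 fell within the DIC range, and the other controls lay below it. The log2 fold change was 0.50 ± 0.24 (SE, limma adjusted p = 0.285), with an interval from -0.06 to 1.06, and 0.71 ± 0.20 without control 2. Sorted by Tlr4 or by the neutrophil marker share, DIC 1 and DIC 3 came at the top and controls 1 and 4 at the bottom, and that share was 13% in control 2 and at most 4.39% in the other controls. The part of neutrophil transcripts in the difference was not tested.

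The co-receptors of TLR4 ordered the libraries differently. Ly96 (ENSMUSG00000025779) encodes MD-2, the protein that holds lipopolysaccharide on TLR4. It measured 23.2, 7.43 and 10.0 TPM in DIC, against 15.9, 7.91 and 11.3 TPM in control, so that DIC 1 was highest, DIC 2 lowest and the controls lay between them. Its log2 fold change was 0.09 ± 0.42 (SE, limma adjusted p = 0.916), and it was -0.35 without DIC 1 and -0.14 without control 2. Cd14 (ENSMUSG00000051439), which passes lipopolysaccharide to TLR4 and MD-2, measured 7.57, 6.14 and 14.4 TPM in DIC, against 25.9, 3.77 and 22.9 TPM in control. As for Tlr2, controls 1 and 4 were above every DIC library and control 2 below every one. Its log2 fold change was -0.57 ± 0.67 (SE, limma adjusted p = 0.652) with all libraries and -1.37 ± 0.34 without control 2. It was -0.12 without control 1, -0.21 without control 4, -0.34 without DIC 2 and -0.89 without DIC 3.

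The ratio of each co-receptor to Tlr4 varied between libraries of a group. The TPM of Cd14 was 0.781, 0.870 and 1.84 times that of Tlr4 in DIC 1, 2 and 3, against 6.07, 0.495 and 4.66 times in controls 1, 2 and 4. The groups overlapped through control 2, while the other controls had more Cd14 per Tlr4 than any DIC library. Ly96 was 2.40, 1.05 and 1.28 times Tlr4 in DIC, against 3.72, 1.04 and 2.31 times in control, and was the more abundant transcript of the pair in all 6 libraries.

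Among the endosomal receptors Tlr13 varied most, and its TPM was above that of Tlr7 in DIC 1 and DIC 3 and below it in the other 4 libraries. Tlr13 (ENSMUSG00000033777), which in mice recognizes bacterial ribosomal RNA, measured 13.7, 0.38 and 3.21 TPM in DIC 1, 2 and 3, against 0.55, 1.18 and 0.49 TPM in controls 1, 2 and 4. DIC 1 and DIC 3 were above all controls and DIC 2 was below all of them, a range of 36.1 times that was the widest among the 9 tested genes. The log2 fold change was 1.36 ± 0.77 (SE, limma adjusted p = 0.352), with an interval from -0.46 to 3.18, and it was 0.49 without DIC 1, 2.20 without DIC 2 and 1.54 without control 2. Its promoter is shown as that of the most variable of these genes. It spans chrX:106143025-106143324 (plus strand, GRCm38.p6, sequence from RefSeq), and the capitals mark GAGGAA, the core bound by the myeloid factor PU.1.
Tlr13 promoter: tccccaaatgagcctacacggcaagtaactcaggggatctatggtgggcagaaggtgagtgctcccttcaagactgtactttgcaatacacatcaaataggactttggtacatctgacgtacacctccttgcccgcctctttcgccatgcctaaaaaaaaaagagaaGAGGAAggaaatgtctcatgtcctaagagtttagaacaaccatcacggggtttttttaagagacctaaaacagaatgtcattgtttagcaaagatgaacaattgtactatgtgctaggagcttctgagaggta
The core lay on the strand shown at bases 168 to 173 of the window. On either strand it occurs in 28.3% of promoter windows, so it does not single out this one.

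Markers of late neutrophils were highest in the same libraries as Tlr13. Cxcr2, a chemokine receptor of mature neutrophils, measured 87.0, 6.95 and 30.4 TPM in DIC, against 2.28, 9.13 and 2.59 TPM in control. Mmp8, a collagenase of neutrophil granules, measured 562, 13.3 and 197 TPM in DIC, against 6.78, 14.6 and 6.69 TPM in control. In these genes too, DIC 1 and DIC 3 were the highest libraries. DIC 2 lay within the range of the controls, whereas for Tlr13 it lay below them. Most neutrophil markers differed from this: 12 of 16 were higher in every DIC library (75%, against 7.08% of all genes tested). Mmp9 was among them, at 28.8 TPM in DIC 2 and at most 26.1 TPM in control. These companion genes were chosen after their values were seen, and the part of mature neutrophil RNA in the level of Tlr13 was not tested.

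Tlr7 (ENSMUSG00000044583), a sensor of single-stranded RNA, measured 2.19, 1.43 and 1.13 TPM in DIC, against 1.72, 3.62 and 1.52 TPM in control. Control 2 was highest and the other controls lay inside the DIC range (log2 fold change -0.31 ± 0.31 SE, limma adjusted p = 0.584). Without control 2 the fold change was -0.04 ± 0.26. Tlr9 (ENSMUSG00000045322), the sensor of unmethylated CpG DNA, was at 0.11 and 0.05 TPM in DIC 1 and 2 and listed at 0 in DIC 3, against 0.02 and 0.09 TPM in controls 1 and 4 and listed at 0 in control 2. It was not tested. TLR7 and TLR9 are known from plasmacytoid dendritic cells and B cells. Summed dendritic cell markers were at 130 to 152 TPM in DIC against 209 to 405 TPM in control. The largest part of that sum in every library was Bst2, at 43.7 to 53.4 TPM in DIC and 75.8 to 243 TPM in control. Siglech, Zbtb46, Itgax and Xcr1 stayed at or below 11.25 TPM, and Flt3 is also in the stem and progenitor list. Of 12 markers, 10 were tested, and 6 of these were lower in every DIC library (60%, against 18.4% of all genes tested). Summed B cell markers were at 123 to 233 TPM in DIC against 238 to 559 TPM in control. Of 10 markers, 7 were tested, and 3 of these were lower in every DIC library (42.9%, against the same 18.4%). The sums did not order the controls as Tlr7 did. Control 2, highest in Tlr7, had 209 TPM of dendritic cell and 298 TPM of B cell markers. Control 4, at 1.52 TPM of Tlr7, had the highest sums, 405 and 559 TPM. No marker of either list was at 0 in a library, and their part in the level of Tlr7 was not tested.

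Set against each other, surface receptors were more abundant than endosomal receptors in every library. The 4 surface receptors summed to 28.4, 16.6 and 17.3 TPM in DIC, against 24.8, 15.7 and 23.9 TPM in control. The 3 endosomal receptors summed to 16.0, 1.86 and 4.34 TPM in DIC, against 2.29, 4.8 and 2.1 TPM in control. Endosomal transcripts were thus 36.1%, 10.1% and 20.1% of the 7 receptors in DIC, against 8.45%, 23.4% and 8.09% in control, with control 2 between DIC 1 and DIC 3.

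As a difference of mean log2(TPM + 1), surface minus endosomal, the libraries stood at 0.88, 1.65 and 1.07 in DIC and at 1.76, 1.03 and 1.65 in control. The DIC mean was 1.20 ± 0.40 and the control mean 1.48 ± 0.39 (SD over 3 libraries), a difference of -0.28. It was -0.50 without control 2 or without DIC 2 and -0.12 without DIC 1, so it lay below the standard deviations with all libraries and above them without control 2. No p is given for such a score. The sign rested on Tlr13, since with that gene left out the means were 1.68 ± 0.17 in DIC and 1.45 ± 0.37 in control, a difference of 0.23.

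**Figure D3:**
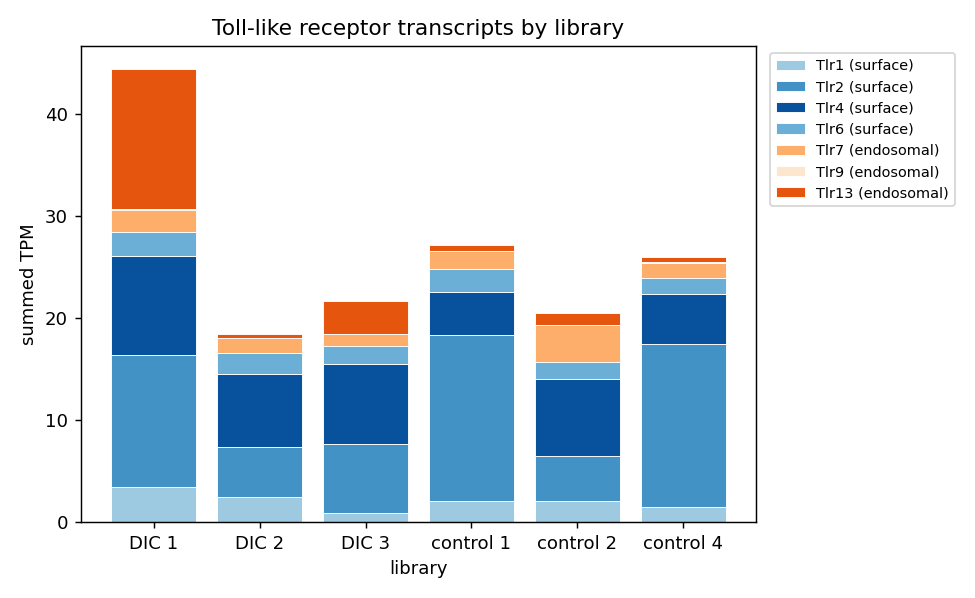
Summed TPM (y axis) of the 4 surface receptors (blue shades) and 3 endosomal receptors (orange shades) in each of the 6 libraries (x axis). DIC 1 reaches the highest sum through 13.7 TPM of Tlr13, and Tlr2 forms the largest block in controls 1 and 4.

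The adaptor Myd88 (ENSMUSG00000032508) was the most abundant of the 10 genes in all 6 libraries. It measured 74.2, 49.7 and 58.8 TPM in DIC, against 77.3, 59.5 and 65.4 TPM in control, so the groups overlapped. Its log2 fold change was -0.16 ± 0.18 (SE, limma adjusted p = 0.647), with an interval from -0.58 to 0.27, -0.24 ± 0.19 without control 2, and 0.06 when the neutrophil markers were removed and TPM rescaled. It ranked at percentiles 80.3 to 86.4 of the genes tested. The promoter is shown as that of the shared adaptor, at chr9:119339969-119340268 (minus strand, GRCm38.p6, sequence from RefSeq). Capitals mark TTCNNNGAA, the core bound by STAT factors, and GAAANNGAA, the core bound by interferon regulatory factors, which overlap.
Myd88 promoter: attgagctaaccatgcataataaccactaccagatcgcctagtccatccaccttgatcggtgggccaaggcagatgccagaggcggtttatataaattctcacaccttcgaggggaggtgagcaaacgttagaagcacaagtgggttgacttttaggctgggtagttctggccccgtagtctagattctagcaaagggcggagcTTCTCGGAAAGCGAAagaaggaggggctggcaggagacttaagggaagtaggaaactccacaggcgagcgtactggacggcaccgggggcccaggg
The STAT core lay at bases 205 to 213 and the interferon regulatory core at bases 211 to 219. On either strand they occur in 8.30% and 8.56% of promoter windows. Of the 10 genes, 6 had a promoter in the RefSeq table. An exon of Acaa1a overlaps Myd88 on the opposite strand, and no source used here states that the libraries kept strand, so reads of that overlap cannot be told apart.

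Ordered by the mean of all 6 libraries, the levels were Myd88 at 64.1 TPM, Cd14 at 13.4, Ly96 at 12.6, Tlr2 at 10.2, Tlr4 at 6.89, Tlr13 at 3.26, Tlr1 at 2.09, Tlr6 at 1.95, Tlr7 at 1.94 and Tlr9 at 0.045 TPM. Only Myd88 at the top and Tlr9 at the bottom were clear of their neighbors. All other neighbors in this order had overlapping ranges. Cd14 exceeded Ly96 in 3 of the 6 libraries, and Tlr13 exceeded Tlr1 in 2 of them, DIC 1 and DIC 3. The ratio of Tlr2 to Tlr4 in TPM was 1.33, 0.705 and 0.871 in DIC, against 3.79, 0.573 and 3.25 in control, so that which of the pair was higher depended on the library.

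The other genes of the pathway were read from lists chosen by role. Of 86 genes listed, 85 had a row and 73 were tested. None passed with limma over all genes (0 of 73), and 20 lay below an unadjusted p of 0.05, which is 27.4% of them, against 20.2% of all genes. The DIC libraries lay above all controls for 6 (8.22%) and below all controls for 17 (23.3%), against 7.08% and 18.4% of all genes. The median log2 fold change was -0.14, against -0.08 for all genes tested. Without control 2, 3 pathway genes were higher (4.11%) and 9 lower (12.3%), against 3.93% and 8.45% of all genes.

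**Figure D4:**
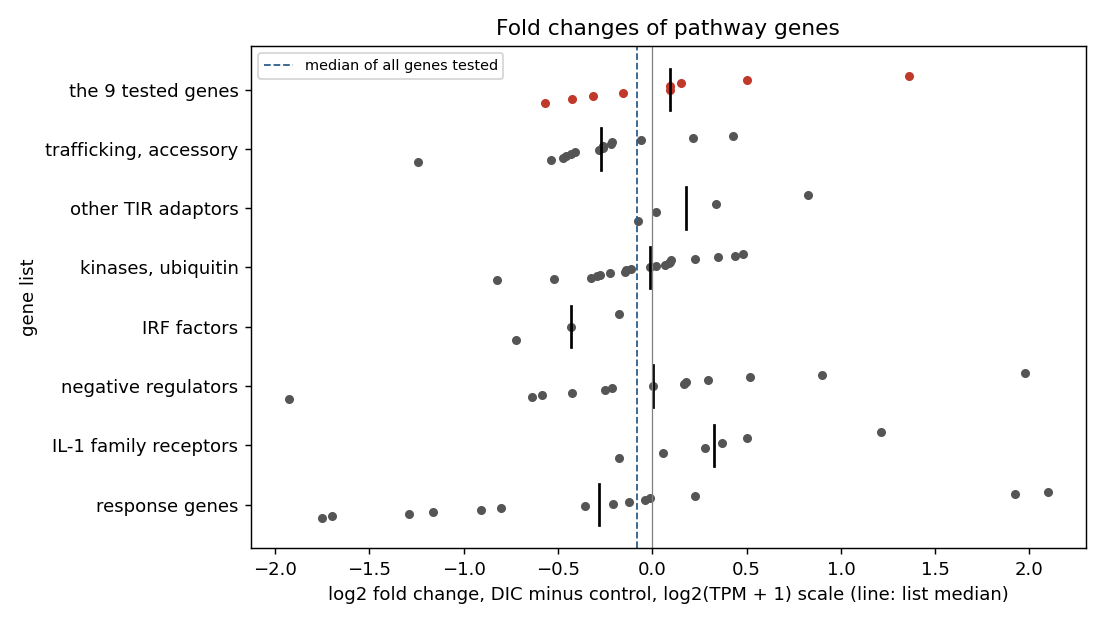
Log2 fold changes of DIC over control on the log2(TPM + 1) scale (x axis) for the 9 tested genes (red) and for the tested genes of 7 pathway lists (grey), a point being 1 gene and a black line the list's median. The dashed line is the median of all genes tested, -0.08, and list medians run from -0.43 for the IRF factors to 0.32 for the IL-1 family receptors.

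Of the remaining mouse receptors, 0 of 5 reached the level for testing. Tlr8, an endosomal RNA sensor, measured 2.77, 0.20 and 1.18 TPM in DIC, against 0.58, 0.28 and 0.25 TPM in control, with DIC 1 and DIC 3 highest as for Tlr13. Tlr5, the flagellin receptor, was at 1.28 and 0.49 TPM in DIC 1 and 3 and listed at 0 in DIC 2, against at most 0.11 TPM in control. Tlr3, a sensor of double-stranded RNA that signals through the adaptor TRIF, was at 0.43 to 0.73 TPM in DIC and 0.42 to 1.24 TPM in control. Tlr11 and Tlr12 stayed at or below 1.40 TPM in every library.

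Of 14 tested genes for receptor trafficking and accessory functions, 2 had positive and 12 negative fold changes, with a median of -0.27 and 0 past the adjusted threshold. Among all 13496 genes tested, 7889 had negative fold changes and the median was -0.08. Unc93b1, the chaperone that carries endosomal receptors to their compartment, measured 162, 151 and 137 TPM in DIC, against 216, 166 and 168 TPM in control, every DIC library being below every control. It did not pass (log2 fold change -0.28, adjusted p = 0.312 by limma). In every library it far exceeded the summed endosomal receptors. Ly86 encodes MD-1, the partner of the receptor RP105 that is encoded by Cd180 and resembles TLR4. It measured 43.4, 58.6 and 42.5 TPM in DIC, against 162, 56.8 and 161 TPM in control, with control 2 in the DIC range (adjusted p = 0.212 by limma, log2 fold change -1.24). Without control 2 it was lower in DIC by limma (log2 fold change -1.74 ± 0.17 SE, adjusted p = 0.0118). Cd180 itself measured 2.69, 1.34 and 1.82 TPM in DIC, against 2.11, 3.37 and 3.64 TPM in control. Cnpy3, a chaperone of several Toll-like receptors, measured 71.6, 88.8 and 74.1 TPM in DIC, against 107, 90.3 and 115 TPM in control (limma adjusted p = 0.216).

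Among the other adaptors, Tirap separated the groups. It encodes the protein that bridges MYD88 to TLR2 and TLR4. It measured 23.7, 18.2 and 17.9 TPM in DIC, against 9.03, 17.3 and 7.70 TPM in control, and every DIC library was above every control. The log2 fold change was 0.83 (limma adjusted p = 0.216) with all libraries and 1.15 ± 0.18 (SE, limma adjusted p = 0.0249) without control 2. Exons of Srpr overlap Tirap on the opposite strand, which makes its value less certain. Pik3ap1, which links these receptors to PI3 kinase, measured 33.4 to 36.1 TPM in DIC and 22.9 to 33.4 TPM in control (limma adjusted p = 0.284). Ticam1, which encodes TRIF, was at 3.37 to 5.19 TPM in DIC and 3.24 to 5.38 TPM in control, far below Myd88. The other TIR adaptor list had 4 tested genes, 3 of them positive.

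Irak4, Irak1, Irak2 and Traf6 overlapped between groups. Irak4, the first kinase to join MYD88, measured 20.3, 14.7 and 18.7 TPM in DIC, against 12.5, 15.0 and 10.2 TPM in control (limma adjusted p = 0.235). Irak1 was at 57.8 to 78.5 TPM in DIC and 60.0 to 85.7 TPM in control, and Irak2 at 9.91 to 17.7 TPM in DIC and 9.14 to 21.1 TPM in control. The ubiquitin ligase gene Traf6 was at 6.41 to 7.75 TPM in DIC and 7.01 to 10.4 TPM in control. Of 19 tested genes of kinases and ubiquitin factors, 9 were positive and 10 negative. The lowest p belonged to Tifa, a TRAF-binding adaptor, at 25.0, 25.5 and 27.3 TPM in DIC, against 46.8, 33.3 and 64.7 TPM in control (adjusted p = 0.212 by limma), and to Ecsit, an adaptor of TRAF6, at 22.5 to 26.4 TPM in DIC and 28.5 to 41.4 TPM in control (adjusted p = 0.212). Both were lower in DIC without control 2 (limma adjusted p = 0.0246 and 0.0347).

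The 3 interferon regulatory factors downstream of these receptors had negative fold changes with all libraries, and that of Irf7 rested on 1 library. Irf5 measured 16.8, 11 and 10.2 TPM in DIC, against 23.0, 14.8 and 27.5 TPM in control (adjusted p = 0.221 by limma), and Irf3 48.7 to 56.1 TPM in DIC and 49.1 to 66.2 TPM in control. Irf7 measured 16.2, 6.10 and 10.9 TPM in DIC 1, 2 and 3, against 5.42, 9.96 and 49.3 TPM in controls 1, 2 and 4. Its log2 fold change was -0.43 (limma adjusted p = 0.766) with all libraries, and the difference of mean log2(TPM + 1) was 0.43 without control 4. Exons of neighboring genes on the opposite strand overlap Irf3, Irf5 and Irf7, with the same limit as for Myd88. The same holds for Irak2, Irak3, Irak4, Tifa, Ecsit, Il1rap, Il1b, Cd180 and Tlr3.

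Of 13 tested negative regulators, 7 had positive and 6 negative fold changes. Cd300lf, an inhibitory receptor, measured 93.9, 34.1 and 46.0 TPM in DIC, against 11.9, 26.5 and 6.26 TPM in control, every DIC library being above every control (log2 fold change 1.98 with adjusted p = 0.212 by limma). Without control 2 it was higher in DIC by limma (log2 fold change 2.48 ± 0.46 SE, adjusted p = 0.0303). Sigirr, an inhibitory member of the IL-1 receptor family, measured 13.3 to 16.5 TPM in DIC and 19.7 to 25.8 TPM in control, and every DIC library was lower (log2 fold change -0.58, limma adjusted p = 0.212). Irak3, which encodes the inhibitory IRAK-M, measured 31.4 to 33.0 TPM in DIC and 22.8 to 29.5 TPM in control, again without overlap (limma adjusted p = 0.271). The IL-1 family receptors that share MYD88 had 5 positive fold changes of 6, led by Il18rap, a chain of the interleukin-18 receptor, at 22.2, 11.1 and 15.5 TPM in DIC, against 4.47, 12.5 and 4.04 TPM in control (adjusted p = 0.213 by limma, log2 fold change 1.21). Without control 2 it too was higher in DIC (log2 fold change 1.67 ± 0.29 SE, limma adjusted p = 0.0275). Il1rap, the shared accessory chain, measured 10.8 to 15.1 TPM in DIC and 6.07 to 11.8 TPM in control (limma adjusted p = 0.308).

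Of 14 tested response genes of these receptors, 3 had positive and 11 negative fold changes, with a median of -0.28. Among all genes tested, 7889 of 13496 were negative and the median was -0.08. Il12a, a subunit of interleukin-12, measured 16.8, 26.8 and 24.6 TPM in DIC, against 31.8, 38.5 and 50.6 TPM in control, every DIC library being lower (limma adjusted p = 0.212). Il1rn, the interleukin-1 receptor antagonist, measured 30.7, 3.23 and 18.2 TPM in DIC, against 2.09, 4.22 and 1.04 TPM in control (limma adjusted p = 0.214), and DIC 1 and DIC 3 were highest, as for Tlr13. Il1b, which encodes interleukin-1 beta, measured 89.6, 4.69 and 45.8 TPM in DIC, against 7.91, 3.22 and 10.7 TPM in control (adjusted p = 0.305 by limma, log2 fold change 1.93); it was named after its values were seen.

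Several NF-kB response genes, named after their values were seen, were high in controls 1 and 4, as Tlr2 and Cd14 were. Nfkbia, which encodes the NF-kB inhibitor IkB-alpha, measured 79.1, 90.7 and 97.1 TPM in DIC, against 463, 97.9 and 538 TPM in control. Tnfaip3, which encodes the feedback inhibitor A20, measured 4.05, 2.98 and 4.22 TPM in DIC, against 35.8, 3.82 and 31.5 TPM in control. Without control 2 both were lower in DIC (log2 fold change -2.48 ± 0.13 and -2.87 ± 0.19 SE, limma adjusted p = 0.00748 and 0.00997), as were Tnf, Nfkbiz and Ccl4. Otulin, listed as a negative regulator and not as a response gene, was also lower there (log2 fold change -0.80, limma adjusted p = 0.0309). Il6 was at 0.38 to 0.64 TPM in DIC and 0.62 TPM in control 2, but at 24.7 and 42.7 TPM in controls 1 and 4. In Nfkbia, Tnfaip3 and Il6 control 2 lay within or next to the DIC range, and the cause was not tested. Not all response genes followed this pattern. Il1b was highest in DIC 1 and DIC 3, and the chemokine gene Cxcl2, also named after its values were seen, measured 11.6, 1.81 and 39.7 TPM in DIC, against 32.3, 0.30 and 19.9 TPM in control, with DIC 3 highest.

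**Figure D5:**
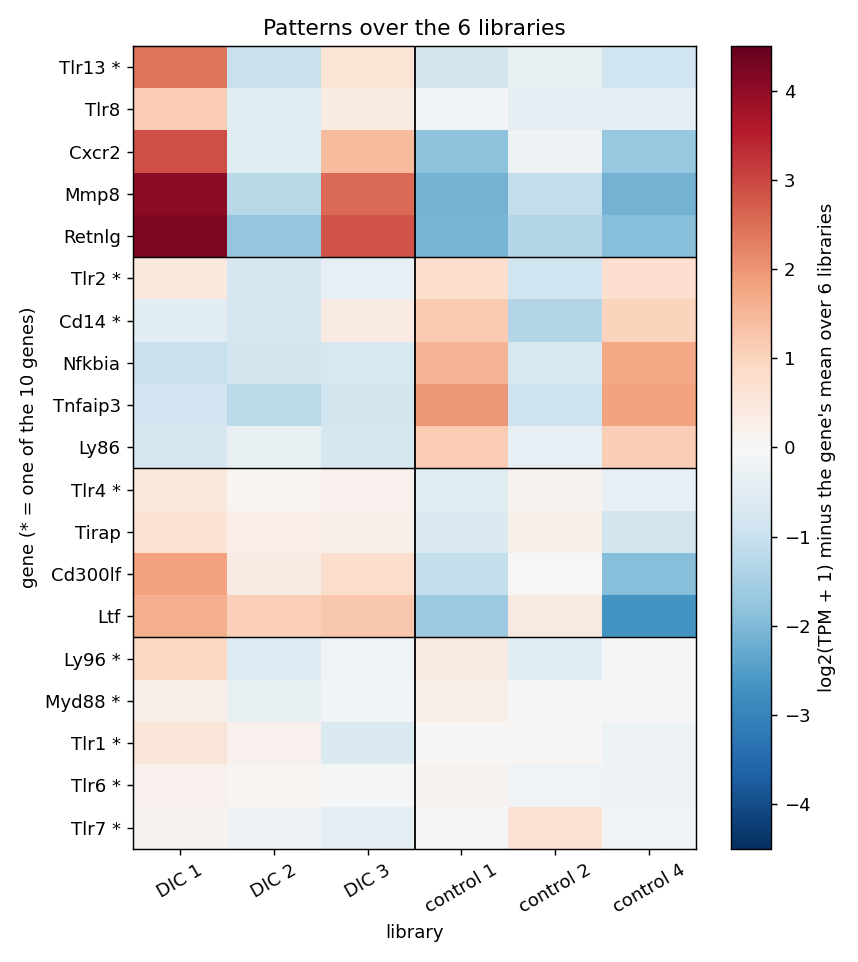
Log2(TPM + 1) minus each gene's mean over the 6 libraries (color scale) for 9 of the 10 genes (marked *) and companion genes chosen after their values were seen (rows), by library (columns). From the top, blocks hold genes high in DIC 1 and DIC 3, genes high in controls 1 and 4, genes low in controls 1 and 4, and the remaining genes of the group.

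The part of other cell types in the values above was not tested, and their marker lists measured as follows. Summed monocyte and macrophage markers were at 4900 to 5241 TPM in DIC and 4552 to 7321 TPM in control, with 0 of 12 markers separating the groups. Most of that sum was Ly6c2, at 4754 to 4994 TPM in DIC and 4382 to 7026 TPM in control. Basophil and mast cell markers were at 447 to 617 TPM in DIC and 1063 to 3494 TPM in control, with 7 of 8 lower in every DIC library, where 18.4% of all genes tested were. Erythroid markers were at 696 to 2026 TPM in DIC and 544 to 750 TPM in control, with 2 of 10 higher in every DIC library, where 7.08% of all genes tested were. T and NK cell markers were at 1319 to 1792 TPM in DIC and 1773 to 2237 TPM in control. Most of that sum was Nkg7, at 1302 to 1782 TPM in DIC and 1747 to 2206 TPM in control. Cd3e, Cd3d, Cd3g and Trac stayed at or below 2.08 TPM, and Cd3e and Trac were at 0 in DIC 2. Of 7 tested T and NK cell markers, 3 were lower in every DIC library (42.9%, against 18.4% of all genes tested). Stem and progenitor markers summed to 366 to 432 TPM in DIC and 485 to 577 TPM in control. Of 11 tested stem and progenitor markers, 3 were lower in every DIC library (27.3%, against 18.4% of all genes tested).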

How the data were processed

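The deposited file is a matrix of TPM, with 56750 rows in 6 libraries. The submitters' processing notes name fastp 0.19.5, HISAT2 2.1.0, StringTie 2.1.2 and the build GRCm39. The annotation release behind the authors' TPM values was not given in the sources used here. The values keep no sequencing depth, so no counting error is given. Symbols came by identifier from GENCODE M21 on GRCm38 (52081 matched and 4669 did not). Since builds differ, gene positions are not printed, and promoter windows carry their own build.

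Columns were grouped by name. Control columns 1 and 4 could not be tied to single samples, because the title of 1 sample and its description disagree. Nothing says that libraries came from separate mice beyond a stated 3 per group. The p-values therefore weigh group differences against the spread between libraries, which may not be the spread between mice.

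The 13496 genes that reached 1 TPM in 3 or more libraries were fitted as log2(TPM + 1) with limma 3.58.1 (R 4.3.3), using trended variances and no covariate. Tests were two-sided, with Benjamini-Hochberg adjustment over all genes and 0.05 as the limit. This scale understates changes of low genes. SE is moderated. An exact permutation test of 3 against 3 cannot go below p = 0.1 and was not run. The members and lists were chosen with earlier results of these data known. All members were named, as were the 2 genes of lowest p in each pathway list without a called gene and a set chosen by role.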

Additional observations from a re-analysis of the deposited data

How the results depend on the processing

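None of the 10 genes passed limma's adjusted threshold under any setting that could be fitted (0 higher and 0 lower). Tlr9 entered only the fit with no filter on low values. Tlr4, Tlr6 and Tlr13 kept positive and Tlr2, Tlr7 and Cd14 negative fold changes in every setting that fitted them, whereas Ly96 turned negative without DIC 1 (-0.35) or control 2 (-0.14), Tlr1 without DIC 1 (-0.17), and Myd88 turned positive with neutrophil markers removed (0.06). With neutrophil markers removed and TPM rescaled, every tested gene of the group had a higher fold change than with them kept. Tlr2 was then at -0.23, Tlr4 at 0.70 and Cd14 at -0.37. Single fold changes of the other pathway genes are not given for that setting. The surface minus endosomal difference ran from -0.50 to -0.12 with 1 library left out. Among all genes, 5 were higher and 3 lower, against 2 higher with log2(TPM + 0.1), 0 and 0 with no filter on low values, and 1 lower after quantile normalization. With 1 library left out these counts ran from 0 to 530 higher and from 0 to 1141 lower, both highest without control 2 and 0 without DIC 1 or control 4. Those of the other pathway genes ran from 0 to 3 and from 0 to 9. With the number in the column name as a replicate block, 3 genes were higher and 5 lower. The numbers share no stated source, and the deviations of same-numbered libraries correlated at -0.0676 and -0.102, so the block is no evidence of pairing. The cause of these changes was not tested, and a fit with 1 library left out also rests on fewer libraries. Unknown depth limits the low values of Tlr9, Tlr8 and Tlr5 most.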
